A study of Saccharomyces cerevisiae with 72 samples.

Results

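Chromosome VI of budding yeast was followed through one S phase in 4 strains, and the results below concern its copy number along its length and at 5 mapped origins and the centromere. The members are the 1-kb bins of chromosome VI in the deposited replication timing tables, chosen by their chromosome name alone. Of 11331 bins listed in at least 1 table, 251 lie on chromosome VI, and 249 of these are listed in all 44 tables. They span positions 15001 to 270000 of the sacCer3 build, which describes the strain S288C. The landmarks, given to the nearest kilobase, were ARS603 at 69 kb, ARS605 at 136 kb, the centromere CEN6 at 149 kb, ARS606 at 168 kb, ARS607 at 199 kb and ARS609 at 256 kb.

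The 4 strains were MATa W303 cells of Saccharomyces cerevisiae, each sampled at 11 times from 15 to 80 minutes after release from G1. Strain B carried sld3-R(2A)-13myc with no change listed at PPH3, strain C carried PPH3-AID and SLD3-13myc, strain D carried PPH3-AID together with sld3-R(2A)-13myc, and strain A carried SLD3-13myc with no change listed at PPH3. All 4 also carried swe1delta::TRP1, cse4delta::NatMX with leu2::CSE4-HA6::LEU2, CDC55-AID::KanMx, and the plant auxin receptor osTir1 under the GPD1 promoter at HIS3. Cells were arrested with alpha factor at 5 µg/ml, given 1 mM of the auxin IAA with a shift to 37 °C for 30 minutes, and released into YPAD medium that still held 1 mM IAA. AID is an auxin-inducible degron, so Cdc55 was targeted in every strain and no strain here lacks the tag on Cdc55. Loss of the AID proteins is not measured by these tables. The comparisons ask what the sld3-R(2A) allele, the depletion of Pph3 and both together did to the timing of the chromosome.

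An origin of replication is licensed in G1, when the origin recognition complex loads pairs of Mcm helicases, and it fires in S phase, when the kinases CDK and DDK act. Sld3 brings Cdc45 to the loaded helicases and, once phosphorylated by CDK, binds Dpb11. It is among the factors thought to be limiting, so that origins which recruit it first replicate first. Pph3 is the catalytic subunit of the phosphatase PP4, and Cdc55 is a regulatory subunit of the phosphatase PP2A. The origins of chromosome VI have been mapped individually, and ARS607 is known as an early and efficient one. A bin without an active origin of its own is copied by forks that arrive from its neighbours, so timing along the chromosome falls away from early origins.

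The gene annotation (R64) placed the landmarks as follows. The kilobase mark of ARS603 lies between MIL1, which ends at 68698, and RIM15, a kinase gene of nutrient signalling, which starts at 69115. ARS605 lies inside MSH4 (134521 to 137157), a meiotic gene whose protein acts in crossing over. The ARS606 mark falls in DCV1, and its bin also holds MIC19 and the tRNA gene SUP11. The ARS607 mark falls near the end of ROG3, and ARS609 lies between HXK1, which encodes a hexokinase and ends at 255049, and YFR054C, which starts at 258855. The centromere mark sits between DEG1, the last gene of the left arm, which ends at 148459, and LOC1, the first gene of the right arm, which starts at 149110. A stretch of 6 kb between ARS605 and CEN6 (138001 to 144000), which holds the retrotransposon genes YFL002W-A and YFL002W-B, is not in the tables.

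Each value is a deposited ratio of S-phase to G1 reads in a 1-kb bin, scaled by the authors so that about 1 stands for unreplicated and about 2 for replicated DNA. There was 1 library for each strain and minute. No difference between strains therefore has a replicate check or a p-value, and each culture and its strain cannot be told apart. Read depth is unknown, so the noise between neighbouring bins was used in its place. It was 0.0425 to 0.0693 of the library median for single bins and 0.0190 to 0.0310 for the 5-kb running means used below. The replication time, Trep, is the minute at which the 5-kb running mean, made monotone in time, crossed 1.5. The range in brackets after a Trep or a delay gives its lowest and highest value when each minute from 20 to 70 was left out in turn.

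All 249 bins reached a Trep in all 4 strains. The chromosome had a single early block that ran from about ARS605 through CEN6 and ARS606 to ARS607, with later DNA on both sides. The median Trep of its bins was 37.6 minutes in B, 35.3 in C, 40.0 in D and 33.9 in A. The quartiles of its bins lay at 30.9 and 46.2 minutes in B, 28.2 and 45.6 in C, 34.1 and 49.6 in D, and 26.3 and 38.7 in A. The chromosome's earliest and latest bins replicated at 27.4 and 60.1 minutes in D, against 23.9 and 47.4 minutes in A. The bin with the lowest Trep averaged over the strains was 199001 to 200000, just right of the ARS607 mark, over the end of ROG3, the small RNA gene RUF22 and the start of PES4. It replicated at 26.8 minutes in B, 25.6 in C, 28.6 in D and 24.0 in A. The latest was 268001 to 269000, in the right subtelomere, at 55.3 minutes in B, 54.3 in C, 53.6 in D and 47.4 in A.

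**Figure D1:**
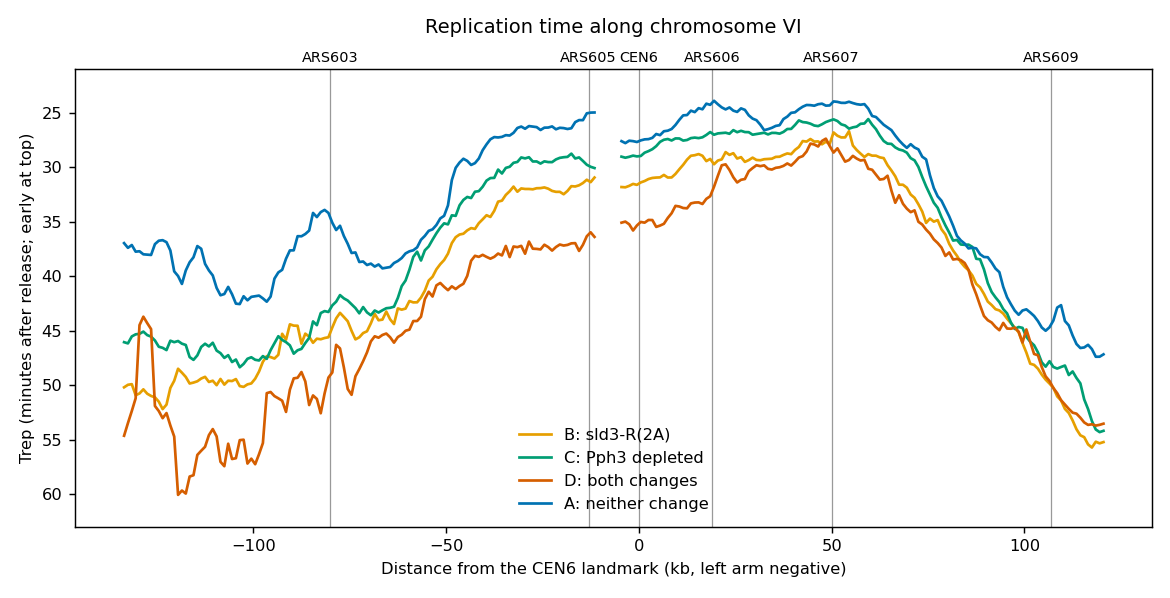
Replication time (Trep, minutes, with earlier times higher on the axis) of each 1-kb bin of chromosome VI against its distance from CEN6 in kb, for strains B, C, D and A. The early block between ARS605 and ARS607 is present in each strain, and the line of D departs farthest from that of A at the left, where delays exceed 15 minutes, and runs closer to it from ARS606 rightwards.

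ARS607 was the earliest landmark in B, C and D and shared first place in A. The 5-kb mean ratio at ARS607 in B was 1.02, 1.10, 1.39, 1.59, 1.85, 2.03, 2.00, 1.89, 1.90, 1.95 and 1.99 at 15, 20, 25, 30, 35, 40, 45, 50, 60, 70 and 80 minutes. At the same minutes ARS607 in C gave 1.07, 0.994, 1.41, 2.03, 2.08, 2.16, 2.18, 2.06, 1.98, 1.94 and 1.95. C was thus at a full ratio by 30 minutes, while B took until 40 minutes.

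In D, ARS607 gave 1.16, 1.02, 1.34, 1.6, 1.75, 1.94, 2.07, 2.32, 2.10, 2.18 and 2.05 at these minutes. In A it gave 1.01, 1.05, 1.57, 1.99, 2.08, 2.05, 2.04, 1.96, 1.94, 1.97 and 1.86. D left the baseline at 25 minutes as A did, but climbed more slowly and passed 2 only at 45 minutes. Trep at ARS607 was 27.8 minutes in B (27.5 to 28.2), 25.7 in C (24.7 to 26.4), 28.0 in D (28.0 to 28.9) and 24.3 in A (23.7 to 24.8). D was later than B by 0.205 minutes (-0.213 to 1.48), less than the shift from leaving out 1 minute. This closeness depends on the processing, since the difference was 5.94 minutes with each bin divided by its 15-minute value, 2.70 with the midpoint of the bin's range as the crossing, 2.01 with single bins and 1.84 with the next bin.

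The ARS607 values carried an offset that differed between strains before and after replication. Relative to the library median, ARS607 in D stood at 1.04 at 15 minutes and 1.09 at 70 minutes, whereas in A it stood at 0.957 and 0.984. When each bin was divided by its own 15-minute value, Trep at ARS607 became 34.5 minutes in D and 24.5 minutes in A, and the delay in D became 9.99 minutes in place of 3.73. ARS607 still ranked first in B, C and D under each of the 6 alternatives run.

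ARS606 replicated at 29.2 minutes in B (28.5 to 29.3), 26.8 in C (26.2 to 27.8), 32.7 in D (32.3 to 32.9) and 24.3 in A (23.5 to 24.5). At 30 minutes its ratio was 1.54 in B, 1.82 in C, 1.41 in D and 2.06 in A, so at that minute D was the lowest and A the only strain past 2. The time at ARS606 less that at ARS607 was 1.39 minutes in B (1.03 to 1.39), 1.05 in C (1.05 to 1.48), 4.61 in D (3.99 to 4.66) and -0.0544 in A (-0.319 to -0.0544). The lead of ARS607 over ARS606 was thus longest in D, and in A it changed sign under 4 of the 6 alternatives.

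ARS605 crossed 1.5 at 36.3 minutes in D, against 25.0 minutes in A. The ratio at ARS605 in D was 1.07, 1.01, 1.06, 1.2, 1.45, 1.63, 1.91, 2.06, 1.97, 2.07 and 2.00 from 15 to 80 minutes. In A it was 1.08, 1.07, 1.50, 1.97, 2.2, 2.13, 2.15, 2.07, 2.14, 2.06 and 2.01. D was still at its baseline at 25 minutes, when A was at the crossing value.

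B and C lay between them, with ARS605 at 1.21 in B and 1.13 in C at 25 minutes and at 1.44 in B and 1.52 in C at 30 minutes. Trep at ARS605 was 31.1 minutes in B (30.8 to 31.1), 29.8 in C (29.6 to 30.1), 36.3 in D (36.0 to 37.0) and 25.0 in A (24.7 to 25.1). The 4 ranges do not overlap. Among all bins of the genome, ARS605 was at percentile 9.93 in B, 16.5 in C, 17.9 in D and 5.73 in A, counted from the earliest.

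CEN6, a centromere rather than an origin, lies inside the early block and 13 kb from ARS605. It replicated at 31.6 minutes in B (31.2 to 31.9), 29.0 in C (28.1 to 30.3), 35.3 in D (35.2 to 35.3) and 27.7 in A (26.4 to 28.9). Its ratio at 25 minutes was 1.09 in B, 1.01 in C, 1.10 in D and 1.14 in A, so no strain had copied it to a large extent by then. In D CEN6 preceded ARS605 by 0.989 minutes, whereas in A it followed ARS605 by 2.63 minutes. In C the ranges of CEN6 and ARS605 overlap, and in B CEN6 was later by 0.471 minutes, an order that turned round under the midpoint crossing and the 15-minute denominator.

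ARS603, on the left arm, was the landmark that differed most between D and A. Its ratio in D was 1.15, 1.10, 1.19, 1.32, 1.29, 1.26, 1.42, 1.51, 1.83, 1.88 and 1.98 from 15 to 80 minutes. In A it was 1.15, 1.23, 1.31, 1.33, 1.53, 1.76, 1.91, 1.92, 2.05, 2.08 and 2.03. D had not reached 1.9 by 70 minutes, whereas A had passed it at 45 minutes.

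At 45 minutes ARS603 stood at 1.47 in B and 1.57 in C, nearer to the 1.42 of D than to the 1.91 of A. Trep was 45.6 minutes in B (45.1 to 46.1), 43.3 in C (42.3 to 43.3), 49.3 in D (48.0 to 49.4) and 34.2 in A (33.5 to 34.2). In the genome ARS603 was at percentile 81.5 in B, 78.9 in C, 72 in D and 57.5 in A. ARS603 in A also had a raised baseline, at 1.08 of the library median at 15 minutes and 1.04 at 70 minutes. Its part in the early crossing was not tested further than by the 15-minute denominator, under which the delay of D was 17.5 minutes and those of B and C were 8.26 and 6.66 minutes.

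ARS609, near the right end, was the latest landmark by Trep in every strain, though in D this order depended on the processing. Its ratio in D was 1.13, 1.14, 1.2, 1.34, 1.24, 1.19, 1.3, 1.52, 2.12, 2.06 and 2.18 from 15 to 80 minutes. In A it was 1.10, 1.17, 1.19, 1.26, 1.24, 1.33, 1.51, 1.84, 1.97, 2.00 and 1.96. Most of its copying fell after 45 minutes in D and after 40 minutes in A. Trep was 49.9 minutes in B (49.7 to 51.7), 47.8 in C (45.4 to 50.3), 49.6 in D (48.8 to 49.6) and 44.7 in A (43.3 to 44.7), and the ranges of C and D overlap. ARS609 was at percentile 96.4 in B, 94.3 in C, 73.0 in D and 97.1 in A, so by Trep a larger share of the genome followed it in D. Relative to the library median, ARS609 in D stood at 1.02 at 15 minutes, 1.09 at 20 and 1.10 at 80, against 1.04, 1.04 and 1.01 in A. The part of this offset in the percentile of D was not tested, and the percentiles were not computed under the alternatives. In D, ARS603 and ARS609 were not separated, at 49.3 and 49.6 minutes with overlapping ranges. With the 15-minute denominator their order in D turned round, at 56.5 and 53.0 minutes.

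**Figure D2:**
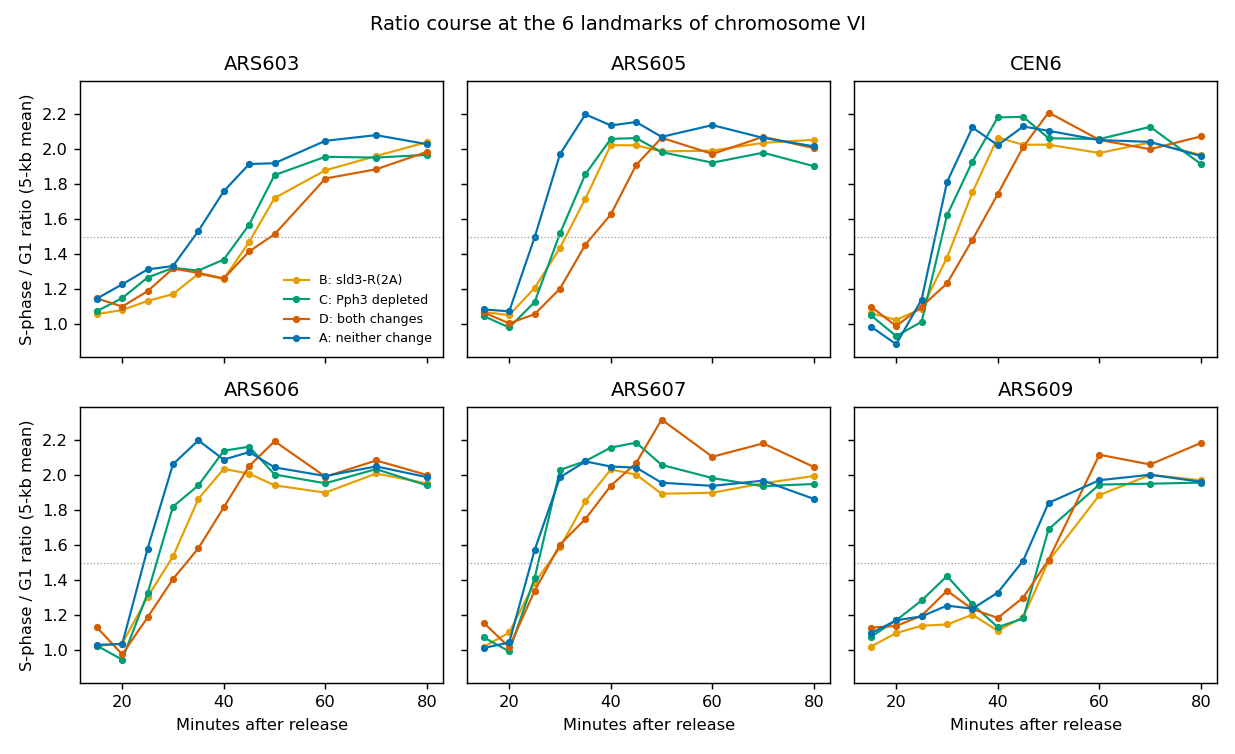
Ratio of S-phase to G1 DNA (5-kb running mean) against minutes after release at each of the 6 landmarks, with a line each for B, C, D and A and a dotted line at the 1.5 crossing. By Trep the strains run closest together at ARS607 and farthest apart at ARS603, where D crossed 1.5 at 49.3 minutes and A at 34.2 minutes.

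Set against A, the delay in D was largest at ARS603 and smallest at ARS607. The difference of Trep between D and A was 15.1 minutes at ARS603 (13.8 to 15.8), 11.3 at ARS605 (11 to 12), 7.66 at CEN6 (6.44 to 8.90), 8.39 at ARS606 (8.01 to 9.11), 3.73 at ARS607 (3.16 to 4.61) and 4.92 at ARS609 (4.11 to 6.03). The median over all 11260 bins of the genome with a Trep in all 4 strains was 11.1 minutes. ARS603 and ARS605 were thus delayed by at least that much, and ARS607 was at percentile 2.94 of all bins. The delay at ARS607 was the most dependent on the denominator, as given above. With scale factors set equal in all strains the delays of D were 4.37 minutes at ARS603, 7.71 at ARS605, 2.07 at ARS607 and 0.306 at ARS609. That setting removes the slower rise of the factors in D by its construction. Under it the largest delay was at ARS605, and under it and the 15-minute denominator the smallest was at ARS609, with 5.95 minutes under that denominator.

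The single changes gave smaller delays at most landmarks. These comparisons share the libraries of A, so a deviation of A at a locus enters each of them. B was later than A by 11.4 minutes at ARS603 (10.9 to 12.1), 6.09 at ARS605, 3.93 at CEN6, 4.97 at ARS606, 3.52 at ARS607 and 5.16 at ARS609. C was later than A by 9.09 minutes at ARS603 (8.12 to 9.76), 4.72 at ARS605, 1.32 at CEN6, 2.5 at ARS606, 1.4 at ARS607 and 3.11 at ARS609. At ARS607 the difference of C from A is not larger than its range of -0.157 to 2.07 minutes. ARS603 was the most delayed landmark in both strains, at percentile 98.5 of the genome for B and 96.3 for C, whereas for D it was at percentile 76.9.

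The interaction is the difference of D from C less that of B from A, and is 0 where the single delays add up. It was -5.39 minutes at ARS603 (-7.16 to -4.20), so D was less late there than the sum of the single delays. It was 0.47 at ARS605 (0.148 to 1.16), 2.41 at CEN6 (2.02 to 2.73), 0.926 at ARS606 (0.205 to 1.73), -1.19 at ARS607 (-1.79 to -0.056) and -3.35 at ARS609 (-8.50 to -2.43). The sign at ARS603 did not hold under the 15-minute denominator, which gave 2.56 minutes. The signs at ARS605, ARS606, ARS607 and ARS609 also turned under at least 1 alternative each, and the value at CEN6 was positive under each of the 6.

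**Figure D3:**
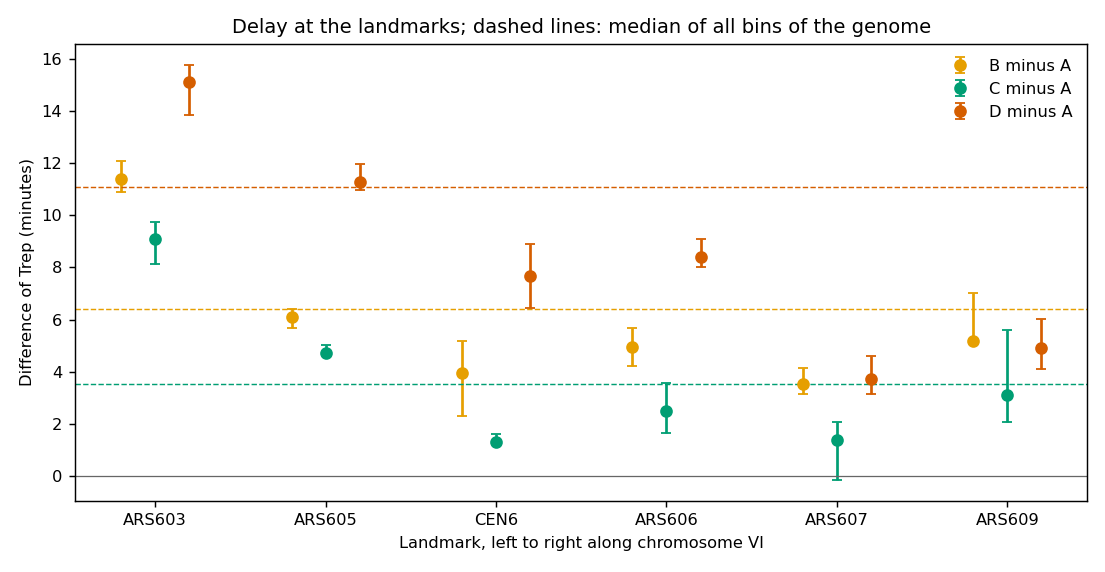
Delay in Trep (minutes) at each landmark for B minus A, C minus A and D minus A, with bars for the lowest and highest value when each minute from 20 to 70 was left out in turn and dashed lines for the genome medians, that of D minus A being 11.1 minutes. The D minus A points fall to 3.73 minutes at ARS607, against 15.1 minutes at ARS603.

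The stretches between landmarks gave the same gradient over many bins. The median delay of D against A was 15.1 minutes over the 54 bins from the left end to ARS603, 10.6 over the 67 bins from ARS603 to ARS605, and 8.25 over the 26 bins from ARS605 to ARS606. It was 4.30 minutes over the 31 bins from ARS606 to ARS607, 4.78 over the 57 bins from ARS607 to ARS609 and 6.89 over the 14 bins to the right end. By these Trep values the left of the chromosome was delayed more than the right, and the smallest medians lay on either side of ARS607. The medians of these stretches were not computed under the alternatives. With the 15-minute denominator the delay of D was 17.5 minutes at ARS603, 12.9 at ARS605, 10.7 at CEN6, 12.7 at ARS606 and 9.99 at ARS607. It was then smallest at ARS609, as given above. Delays of D over 10 minutes were found in 88 of 249 bins of chromosome VI, or 35.3%, against 58.5% of all bins of the genome. Of these 88 bins, 48 lay left of ARS603, 38 between ARS603 and ARS605, 2 between ARS605 and ARS606, and none farther right. With the 15-minute denominator 141 bins of chromosome VI passed 10 minutes, and neither their positions nor the genome share was computed.

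Fewer bins passed 10 minutes in the other comparisons. B against A gave 25 of 249 bins (10%, with 5.44% genome-wide), and C against A gave 4 (1.61%, with 2.15% genome-wide). D against B gave 3 bins (1.2%, with 8.45% genome-wide) and D against C gave 5 (2.01%, with 21.8% genome-wide). At 10 minutes B against A was the only one of the 5 comparisons in which chromosome VI held a larger share of such bins than the genome did. At 8 minutes this was not so, with 19.3% of chromosome VI against 23.9% of the genome for B and 9.24% against 7.39% for C. A bin counts as 1 of several that a single fork or origin copies, so these counts are not counts of independent events.

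The bin with the largest delay of D against A was 31001 to 32000 on the left arm, where no gene is annotated, at 60.0 minutes in D and 39.5 minutes in A. The delay was 20.5 minutes (15.4 to 20.8). Farther right, at least 20 kb apart, came 66001 to 67000 in MIL1 with 18.5 minutes and 133001 to 134000 in VTC2, which encodes a subunit of the vacuolar polyphosphate polymerase, with 12 minutes. The smallest delay was at 247001 to 248000 in RMD8, at 45.1 minutes in D and 43.5 minutes in A, a difference of 1.55 minutes (1.52 to 2.78). It was followed by 197001 to 198000 in ROG3, beside ARS607, with 3.03 minutes, and by 226001 to 227000 with 4.28 minutes, a bin that holds CDC26, a gene for a subunit of the anaphase-promoting complex. Bins with the smallest delays thus included both the earliest DNA of the chromosome and late DNA on the right arm.

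The 3 early origins, whose times in A lay within 1 minute of one another, were spread out in the other strains. ARS605 followed ARS607 by 3.30 minutes in B (2.93 to 3.30), 4.05 in C (3.73 to 4.95), 8.28 in D (7.40 to 8.96) and 0.726 in A (-0.121 to 1.33). The ranges of B and C do not reach that of A, and that of D lies above all others. With the 15-minute denominator the gap was 4.75 minutes in D, close to the 4.47 minutes of B, and 1.80 minutes in A. With single bins it was 14.6 minutes in D and 6.82 minutes in B. In each of the 6 alternatives the gap was longest in D and shortest in A.

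The quotient of the ratios at ARS607 and ARS605, in which the scale factor of a library cancels, also differed between the strains at single minutes. At 25 minutes it was 1.15 in B, 1.25 in C, 1.27 in D and 1.05 in A. At 30 minutes it was 1.10 in B, 1.34 in C, 1.33 in D and 1.01 in A. The quotient in D stayed at 1.19 at 40 minutes, by which time it was 1.00 in B, 1.05 in C and 0.96 in A. At 15 minutes it was already 0.953 in B, 1.03 in C, 1.08 in D and 0.934 in A. At 70 minutes it was 0.960 in B, 0.978 in C, 1.05 in D and 0.954 in A. Part of the difference between D and A was thus present outside the time of replication.

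The order of the landmarks followed from these times. B ran ARS607, ARS606, ARS605, CEN6, ARS603 and ARS609. C and D ran ARS607, ARS606, CEN6, ARS605, ARS603 and ARS609, but in D ARS603 followed ARS609 with the 15-minute denominator. A ran ARS606, ARS607, ARS605, CEN6, ARS603 and ARS609, where the range of ARS607 overlaps those of both ARS606 and ARS605. In A, ARS607 came first under 4 of the 6 alternatives. In C the ranges of ARS607 and ARS606 overlap, although ARS607 was the earlier whichever minute was left out, and so do those of CEN6 and ARS605.

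At equal bulk DNA content the early block was a plateau in each strain, and in D it was lower at ARS605 and wider overall. Bulk content was read from a strain's scale factor, which lay close to its mean ratio, although how the factors were set is not given. The ratios were interpolated to the minute at which that factor was 1.5. This was 38.1 minutes in B, 34.6 in C, 42.3 in D and 31.6 in A. The ratio at ARS605 was then 1.91 in B, 1.83 in C, 1.76 in D and 2.04 in A. At ARS607 it was 1.96 in B, 2.08 in C, 2.00 in D and 2.02 in A. The strains thus differed by 0.288 at ARS605 and by 0.112 at ARS607, and the noise of a 5-kb mean was at most 0.0310 of the library median. The smaller difference at ARS607 depended on the denominator. With each bin divided by its value at the first minute sampled, ARS605 stood at 1.65 in D and 1.90 in A. ARS607 then stood at 1.73 in D and 1.99 in A, and B and C lay between D and A at each of these origins. The stretch around the plateau with a ratio above 1.5 ran from 99001 to 232000 in B (133 kb), 100001 to 228000 in C (128 kb), 93001 to 237000 in D (144 kb) and 100001 to 225000 in A (125 kb). D thus had the longest stretch past 1.5 at the same bulk content, and it reached this content 10.7 minutes after A.

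Height above the surroundings was taken as the ratio at an origin less the mean of the lowest bins on its left and right. Each side ran to the next mapped origin, past CEN6 where it lay between, or to the chromosome end. The height fell short of A most at ARS603 and ARS605. At ARS603 it was 0.0303 in B, 0.0975 in C, 0.0348 in D and 0.236 in A. At ARS605 it was 0.337 in B, 0.347 in C, 0.211 in D and 0.546 in A. At ARS607 it was 0.448 in B, 0.545 in C, 0.427 in D and 0.453 in A, and ARS607 in B and D differed from A by less than the noise of a 5-kb mean. With the 15-minute denominator the ARS603 height in A was 0.132, still above the 0.028, 0.0693 and 0.038 of B, C and D, and the ARS607 height in D was 0.327. ARS609 rose over its surroundings by 0.0352 in B, 0.0826 in C, 0.0478 in D and 0.0791 in A, and the value in C was 0.141 at a bulk factor of 1.4. ARS606, which sits on the plateau, rose by 0.0656 in B, 0.0682 in C, 0.0812 in D and 0.167 in A. The lowest bin on its right was close to it in D (1.9192 against 1.9237) and C (1.9195 against 1.9313). There the height came mostly from the left side. By Trep the latest bin between ARS606 and ARS607 lay 13.5 kb from ARS606 in A. For the other strains this distance was 0.5 kb, though larger when some minutes were left out. Since the lowest bins were used, small heights such as that of ARS609 in B need not mark a peak.

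**Figure D4:**
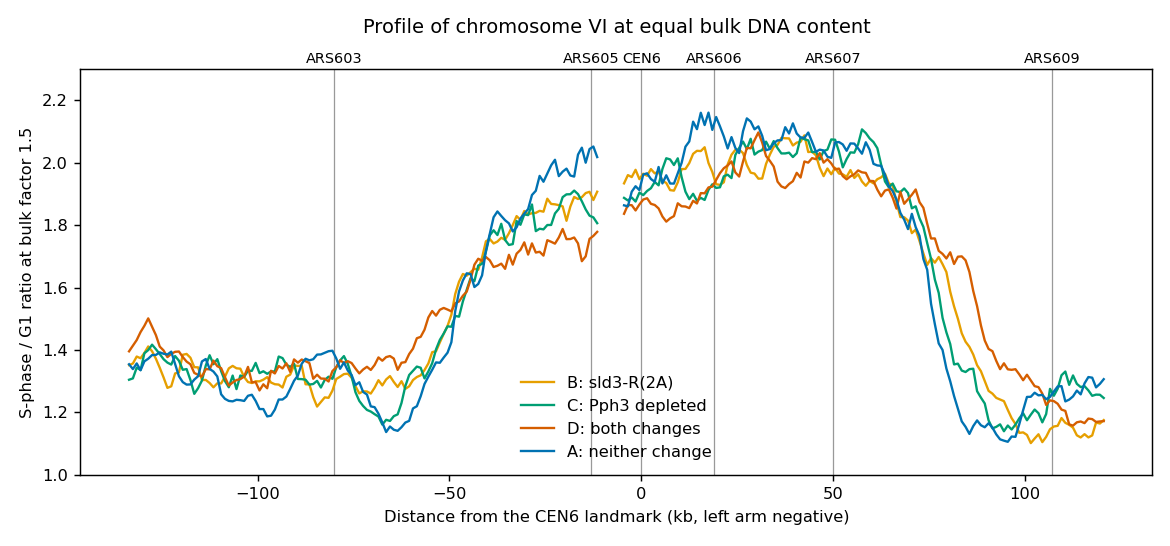
Ratio of S-phase to G1 DNA (5-kb running mean) along chromosome VI, against distance from CEN6 in kb, interpolated in B, C, D and A to the minute at which the scale factor was 1.5. At ARS605 D reads 1.76 and A reads 2.04, and on both flanks the line of D stays above 1.5 for longer than that of A.

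Local maxima of the profile were few. Maxima were sought per strain in the library whose ratios were most spread. Those that topped the 10 kb on either side and whose prominence was over 3 times the bin noise numbered 1 in B, 1 in C, 1 in D and 2 in A. The peaks of A lay 1.5 kb from ARS603 and 1.5 kb from ARS606. The single peaks of B, C and D lay 13.5 kb from ARS607, 7.5 kb from ARS607 and 11.5 kb from ARS606, on the plateau or just right of it. The peak of A at ARS603 had no counterpart in B, C or D, and A too had 1 peak at 5 times the noise and 1 on the mean of 25 to 50 minutes. In the libraries searched, ARS605, ARS606 and ARS607 were thus not resolved as separate peaks. These libraries were from 35 minutes in A and C, 40 in B and 45 in D. By then these origins were well above 1.5, so the search cannot tell whether they stood apart earlier. At 25 minutes A had 1.50 at ARS605, 1.14 at CEN6, 1.58 at ARS606 and 1.57 at ARS607. The lowest bin between ARS606 and ARS607 was then at 1.28. In D at 25 minutes ARS605, at 1.06, was below CEN6, at 1.10. Peaks were not sought at 25 minutes.

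Timing fell off on both sides of the plateau. On the right of ARS607, from 20 to 45 kb away, Trep changed with distance at 2.09 kb per minute in B, 1.81 in C, 2.10 in D and 1.86 in A. On the left of ARS605, over the same distances, the rate was 2.51 kb per minute in B, 2.78 in C, 4.12 in D and 2.12 in A. The strains thus lay close together on the right flank, while D was the shallowest on the left flank. These distances were chosen after the values were seen. The rates are slopes of population averages, in which firing at other origins and the spread of firing times between cells also enter, and they are not fork speeds. With 20 to 40 kb or 25 to 45 kb the left rate in D was 4.64 or 3.57 kb per minute, and with common scale factors it was 7.66 kb per minute.

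The latest DNA between ARS603 and ARS605 lay nearer to ARS603 in B and D than in A. It lay 6.5 kb right of the ARS603 mark in B (45.8 minutes), 10.5 kb in C (43.6 minutes), 5.5 kb in D (50.9 minutes) and 13.5 kb in A (39.3 minutes). ARS603 itself was earlier than this latest point by 0.198 minutes in B, 0.303 in C, 1.58 in D and 5.09 in A, so the dip between the landmarks was deepest in A. In C the position was 10.5 to 13.5 kb when single minutes were left out, a range that includes the position in A. Between ARS607 and ARS609 the latest bin was 254001 to 255000 in each strain, which is next to ARS609. Right of ARS609 Trep went on to later values in each strain, with medians to the right end of 54.3 minutes in B, 49.6 in C, 52.8 in D and 46.3 in A. In A it was nevertheless 42.7 minutes at 258001 to 259000, earlier than the 45.0 minutes of that latest bin.

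Chromosome VI was less delayed in D than any other chromosome. Its median delay of D against A was 7.49 minutes (quartiles 5.33 and 11.2), against 11.1 minutes over the 11011 bins of the other 15 chromosomes. The next lowest medians were 8.16 minutes on chromosome I and 8.28 minutes on chromosome III, and the highest was 14.5 minutes on chromosome IV. Chromosomes I, VI and III are the 3 shortest by their last listed bin, and chromosome IV is the longest. When bins were compared with those of the other chromosomes within deciles of Trep, taken from B and C, chromosome VI was less delayed by 1.90 minutes instead of 3.66 minutes. Under the midpoint alternative chromosome VI ranked second lowest, and in the other 4 alternatives run it ranked lowest.

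The other differences on chromosome VI were also below those of the remaining chromosomes. B was later than A by a median of 5.04 minutes on chromosome VI and 6.43 minutes elsewhere, and C was later than A by 2.75 and 3.55 minutes. D was later than B by 2.21 minutes on chromosome VI and 4.57 minutes elsewhere, and later than C by 4.89 and 7.46 minutes. Within deciles of timing the differences from the rest were -0.313 minutes for B against A and -0.347 for C against A, and -1.63 for D against B and -1.54 for D against C. Chromosome VI thus differed more from the rest in the comparisons that involve D. All 249 bins were later than A in B and in D, and 247 were in C, the exceptions being the 2 bins from 234001 to 236000. On the other chromosomes the lower quartiles of these differences were 4.94 minutes for B, 2.24 for C and 8.05 for D. Most bins there were therefore later than A too, and these counts are not a trait of chromosome VI.

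In terms of rank among the 16 chromosomes, counted from the earliest median Trep, chromosome VI was 5 in B, 6 in C, 3 in D and 13 in A. Its spread of timing was the widest of all in B, C and A and the second widest in D. The interquartile range was 15.3 minutes in B, 17.4 in C, 15.5 in D and 12.4 in A, whereas over the other chromosomes it was 9.07, 10.5, 12 and 8.76 minutes. The early plateau and the late arms of chromosome VI were thus farther apart in time than the early and late bins of most chromosomes.

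**Figure D5:**
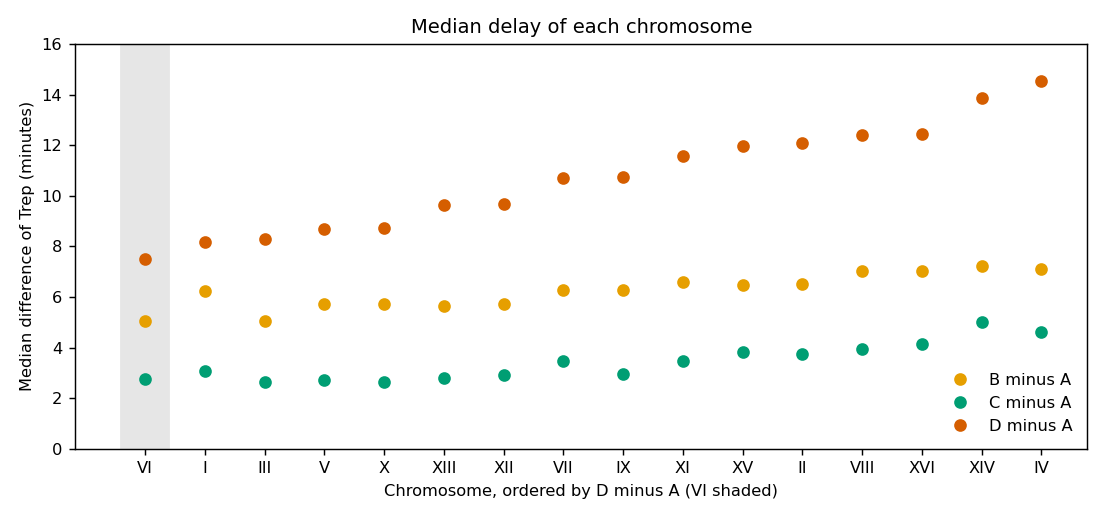
Median difference of Trep (minutes) of each of the 16 chromosomes for B minus A, C minus A and D minus A, with the chromosomes ordered by D minus A and chromosome VI shaded. Chromosome VI has the lowest D minus A median, 7.49 minutes, next to chromosomes I and III, and chromosome IV has the highest, 14.5 minutes.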

How the data were processed

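Replication timing was read from 44 deposited tables, 1 for each of 4 strains and 11 minutes, of 72 samples in the series. The 4 G1 libraries enter only as denominators, and the 24 chromatin immunoprecipitation samples were not analysed here. Per the file headers, the authors divided S-phase reads per 1-kb bin by G1 reads of the same strain and multiplied this ratio by a scale factor, which the tables also list. How each factor was set is not given in the sources used here. The mean ratio differed from the factor by at most 0.0047. Per the submitters' processing notes, Bowtie2 2.2.6, SAMtools 1.7.2, bedtools 2.26.0 and the sacCer3 build were used, with no roles stated. The tables list 11303 to 11323 bins, of which 249 to 251 on chromosome VI, and factors of 1.039 to 2.

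Bins listed in all 44 tables were smoothed over 5 kb with at least 3 bins present, made monotone by isotonic regression, and Trep was interpolated linearly at 1.5 (Python 3.11.15, numpy 2.4.6, pandas 2.3.3). The same steps, tested on simulated courses, ran on every bin of the genome. Depth is unknown, so no interval that needs it is given, and with 1 library per strain and minute no test was made. For relative timing, ratios were divided by their library median, the area under them from 15 to 80 minutes was taken, and the genome median was subtracted, so higher is earlier. Alternatives changed the smoothing, scale factors, crossing, denominator, landmark bin, windows and thresholds. Named loci are the landmarks, the earliest and latest bin, and the 3 bins with the largest and the 3 with the smallest D minus A difference at least 20 kb apart. Other origins could not be added, since no origin annotation was used here. The members and lists were chosen with earlier results of these data known.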

Additional observations from a re-analysis of the deposited data

Results flagged for a closer look

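The difference between D and B, which is the effect of Pph3 depletion in sld3-R(2A) cells, ran opposite to that between C and A at the right end of chromosome VI. At ARS609 D minus B was -0.239 minutes (-2.89 to -0.236), whereas C minus A was 3.11 minutes (2.07 to 5.61). Over the 14 bins from ARS609 to the right end the median of D minus B was -1.39 minutes, whereas that of C minus A was 5.19 minutes. Each difference rests on 1 culture per strain, and the difference between them was not tested. The sign at ARS609 depends on the processing. D minus B there was 2.42 minutes under the 15-minute denominator and 2.54 minutes under the midpoint crossing, where C minus A was 2.10 and 2.58 minutes. With single bins and with the next bin D minus B was 0.0763 and 0.0191 minutes.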

How the results depend on the processing

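No paired analysis was possible because each strain and minute has 1 library and no replicate numbers. Apart from leaving out single minutes, alternatives gave 835 values, of which 510 were taken as unchanged. Counts were so taken within 1.5-fold, and ranks only if equal. Other values were so taken up to the largest shift from leaving out a minute, or a fixed tolerance where no minute was left out. In all, 37 values changed sign, 18 from a value larger than that shift or tolerance and 19 from a smaller one. Setting the scale factors equal at each minute made the median Trep of chromosome VI 36.4 minutes in C, 36.2 in D and 37.5 in A, and the median differences from A 2.22 minutes in B, 1.90 in C and 2.79 in D, with D later than B by 0.559 and than C by 1.3 minutes and an interaction of -0.912. It left 3 bins with a D minus A over 10 minutes, a difference of chromosome VI from the rest of -1.70 minutes and a gap from ARS607 to ARS605 of 6.57 minutes in D. By construction it removes differences between strains in the factors, and with them any in bulk DNA content that the factors carry. Crossing at a bin's own midpoint between its lowest and highest value gave medians of 36.1 minutes in C and 41.8 in D, differences of D from A, B and C of 9.12, 4.12 and 6.49, an interaction of 1.00, a difference from the rest of -2.77, a rank of 2 and gaps of 4.13 in B, 6.68 in D and 1.73 in A. The 15-minute denominator gave medians of 37.5 in C, 44 in D and 35.9 in A, differences of D from A, B and C of 10.8, 5.90 and 7.90, an interaction of 2.89, 141 bins over 10 minutes and gaps of 4.47 in B, 4.75 in D and 1.80 in A. Single bins gave a median of 33.2 minutes in A and gaps of 6.82 in B, 14.6 in D and 2.07 in A. The 9-kb mean gave a gap of 3.67 in B, and the next bin gave gaps of 4.56 in B and 7.32 in D. A threshold of 15 minutes left 27 bins (10.8%, with 23.8% genome-wide). The genome shares that go with the 3 and the 141 bins above were not computed. In A, 1 peak was left at 5 times the noise and on the mean of 25 to 50 minutes. The cause of these shifts was not tested.

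The 18 sign changes from larger values were as follows. With common factors D minus B at ARS603 was -2.64 minutes, D minus C was -2.25, and the slope right of ARS603 in D was 0.0194 minutes per kb. The interaction became 2.56 at ARS603 (15-minute denominator), -1.05 at ARS606 (next bin), and at ARS607 0.203 (single bins), 0.958 (midpoint), 3.84 (15-minute denominator) and 0.194 (next bin). With bins 3 to 14 kb away the slopes were 0.0139 left of ARS603 in B, 0.0511 left of ARS603 in D, -0.00494 left of ARS605 in B and -0.0695 right of ARS606 in D. Relative timing at ARS603 in A became -1.30 minutes with single bins, -3.29 with the 15-minute denominator and -2.08 after division by the mean profile of 15, 70 and 80 minutes. At ARS605 in D it became -0.319 with single bins, and the median over chromosome VI in C became -0.00494 with the 15-minute denominator. The other 19 sign changes include the median interaction of the chromosome, the interaction at ARS605 (-0.371 with the next bin) and ARS609 (0.324 with the 15-minute denominator), D minus B at ARS609 (2.54 with the midpoint), D minus C at ARS609 (-1.47 with common factors), slopes beside ARS603, ARS606 and ARS607, and relative timing at ARS609 in D. Delays of B, C and D against A at the 6 landmarks were positive under each alternative that changed smoothing, factors, crossing, denominator or bin. Libraries every 5 minutes up to 50 and every 10 minutes later limit how finely late bins are timed.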

Other observations

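Late DNA of chromosome VI did not rise steadily in these tables. From ARS609 to the right end the median ratio in C was 1.38 at 30 minutes, 1.27 at 35 and 1.12 at 40, before it reached 1.52 at 50 minutes. In D the same stretch gave 1.34, 1.23, 1.16 and 1.3 at these minutes, in B 1.16, 1.21, 1.12 and 1.27, and in A 1.27, 1.28, 1.29 and 1.74. The fall after 30 minutes was thus present in C and D, smaller in B and not seen in A. At 20 minutes the stretch from ARS606 to ARS607, the earliest of the chromosome, stood below 1, at 0.944 in B, 0.847 in C, 0.926 in D and 0.898 in A, while the left end stood at 1.10 in B, 1.17 in C, 1.11 in D and 1.19 in A. For changes between minutes, the library scale and the copying of a bin cannot be told apart from these values alone. The 20-minute contrast is between stretches of the same library, so the scale factor cancels in it, and its source was not tested.

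Near the left end, D had a short stretch that was early for its surroundings. Bins starting at 19001 to 22001 had a Trep of 43.7 to 44.9 minutes in D, whereas the bins starting at 18001 and 23001 had 51.2 and 51.9 minutes. In B the bins starting at 18001 to 23001 had 50.4 to 51.1 minutes, in C 45.1 to 45.9 and in A 37.1 to 38.0. The stretch was chosen after its values were seen, and its ratio lies close to the crossing value for several minutes.

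Relative timing, in which the scale factors cancel, placed ARS607 at 6.80 minutes in B, 7.94 in C, 12.6 in D and 4.90 in A relative to the genome median, with higher values for earlier DNA. After division by the mean profile of 15, 70 and 80 minutes of each strain these were 8.37, 8.15, 8.86 and 7.49 minutes, so the strains lay closer together. ARS605 stood at 4.96 in B, 3.66 in C, 4.37 in D and 6.08 in A after the same division. ARS609 in D stood at 0.596 minutes before this division and at -2.22 after it, and in B at -5.28 and -4.23.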
